A study of Homo sapiens with 8 samples.

Results

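The E2F and RB family was measured in MOLM-13 cells, an acute myeloid leukaemia line of monocytic type with an internal tandem duplication in FLT3. Its members here are the 10 genes with the symbols E2F1, E2F2, E2F3, E2F4, E2F6, E2F7, E2F8, RB1, RBL1 and RBL2, taken by symbol from tables of 58302 genes. No measured value entered the choice of a gene, although the set was drawn up with earlier results of these data known. One set of cells carried the hairpin sh-NC as control, and the other carried sh-circMYBL2, directed at a circular RNA that derives from MYBL2. Ribosome footprints, the RNA fragments that ribosomes shield from nuclease, and input RNA were each sequenced in 2 libraries per hairpin, giving 8 libraries in 4 groups. The labels name no further treatment, and they do not say how the hairpins were delivered, whether a line was 1 clone or whether replicate libraries were grown apart. The p-values below therefore measure only the spread between these libraries, which may be technical. circMYBL2 was not matched to a row of the tables, so its level is not given.

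E2F proteins are transcription factors that bind the promoters of genes for DNA replication and the cell cycle, most of them as dimers with a DP protein. The pocket proteins RB1, RBL1 (p107) and RBL2 (p130) bind E2Fs and hold their targets down until cyclin-dependent kinases phosphorylate them late in G1 phase. E2F1, E2F2 and E2F3 are known mainly as activators, E2F4 as a partner of RBL1 and RBL2 in repressor complexes, E2F6 as a repressor that works with Polycomb proteins without binding pocket proteins, and E2F7 and E2F8 as atypical repressors that bind DNA without a DP protein. Several of these genes are themselves known targets of E2F, which is why their promoters are shown first.

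Promoter windows of RefSeq (GRCh38.p14), from 250 bases before to 50 bases after a gene's start, were present in the table used for 9 of the 10 members, with E2F8 the exception. They were searched on both strands for an E2F word of 8 letters (TTTCCCGC, TTTCGCGC, TTTGCCGC or TTTGGCGC). It lay in windows of 4 of the 9 members (E2F1, E2F2, E2F3 and RBL1) or 44.4%, against 1090 of all 27305 genes with a window (3.99%) and 3.31% of the 35116 windows. The same words without their last base, chosen after seeing the data, lay in windows of 5 of the 9 members, E2F6 being added, against 10.4% of genes with a window (8.67% of windows). The short word of the cell cycle homology region, CHR (TTTGAA or TTCGAA), lay in windows of 2 of the 9 members (E2F3 and RBL2, 22.2%), against 19.5% of genes with a window (16.4% of windows). The window listed for RB1 lies inside the gene (chr13:48476200-48476499, with the gene starting at base 48303751) and holds none of these words. E2F3 and RBL2 have a pair of windows each, and a word was counted where either held it. A match is a run of letters and says nothing of binding. The windows of E2F1, E2F2 and RBL1, which hold the word, are set beside those of E2F7 and E2F4, which do not. Letters that match either form of the E2F word on either strand are in capitals, and each line is 5′ to 3′ on the gene's strand.
E2F1, chr20:33686336-33686635, minus strand: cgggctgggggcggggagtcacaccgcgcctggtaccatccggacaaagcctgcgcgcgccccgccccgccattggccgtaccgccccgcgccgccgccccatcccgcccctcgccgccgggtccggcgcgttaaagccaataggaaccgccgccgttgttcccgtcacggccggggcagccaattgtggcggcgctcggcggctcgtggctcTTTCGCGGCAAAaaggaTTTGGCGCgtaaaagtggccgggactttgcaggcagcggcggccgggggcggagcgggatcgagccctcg
E2F2, chr1:23531184-23531483, minus strand: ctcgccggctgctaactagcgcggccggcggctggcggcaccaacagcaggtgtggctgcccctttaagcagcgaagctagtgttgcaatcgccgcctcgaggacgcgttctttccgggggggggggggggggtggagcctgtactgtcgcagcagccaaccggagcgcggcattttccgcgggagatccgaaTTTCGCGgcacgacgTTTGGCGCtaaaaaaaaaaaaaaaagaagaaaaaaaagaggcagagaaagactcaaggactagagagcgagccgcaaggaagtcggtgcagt
RBL1, chr20:37095948-37096247, minus strand: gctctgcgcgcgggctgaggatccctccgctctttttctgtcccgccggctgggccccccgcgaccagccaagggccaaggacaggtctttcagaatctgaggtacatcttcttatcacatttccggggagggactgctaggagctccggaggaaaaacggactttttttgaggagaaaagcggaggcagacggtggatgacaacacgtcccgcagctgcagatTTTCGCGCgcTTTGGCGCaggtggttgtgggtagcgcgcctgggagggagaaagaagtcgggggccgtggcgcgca
E2F7, chr12:77065520-77065819, minus strand: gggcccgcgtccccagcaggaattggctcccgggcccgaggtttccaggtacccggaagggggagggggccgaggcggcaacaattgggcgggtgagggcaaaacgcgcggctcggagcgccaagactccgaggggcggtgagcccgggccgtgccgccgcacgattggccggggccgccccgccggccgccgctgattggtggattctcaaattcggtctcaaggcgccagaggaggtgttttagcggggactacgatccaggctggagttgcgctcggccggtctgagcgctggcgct
E2F4, chr16:67191905-67192204, plus strand: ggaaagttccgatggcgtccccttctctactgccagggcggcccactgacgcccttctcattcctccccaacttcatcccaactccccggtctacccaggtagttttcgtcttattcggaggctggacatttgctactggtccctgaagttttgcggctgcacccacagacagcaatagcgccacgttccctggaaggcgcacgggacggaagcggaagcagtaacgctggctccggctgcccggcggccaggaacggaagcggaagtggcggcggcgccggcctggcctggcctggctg

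Counted from the gene's start, the 2 words of the E2F1 window begin at bases -33 (TTTGCCGC, on the opposite strand) and -20 (TTTGGCGC). The RBL1 window has TTTCGCGC at -26 and TTTGGCGC at -16, and the E2F2 window has TTTGGCGC at -42 beside a shorter TTTCGCG at -57. In the E2F3 window (chr6:20401629-20401928) the word TTTCCCGC begins at -53 on the opposite strand. The genes themselves lie at chr20:33675477-33686385 (E2F1), chr1:23505212-23531233 (E2F2), chr6:20401879-20493714 (E2F3), chr16:67192155-67198918 (E2F4), chr2:11444375-11466161 (E2F6), chr12:77021251-77065569 (E2F7), chr11:19224063-19241655 (E2F8), chr13:48303751-48481890 (RB1), chr20:36996349-37095997 (RBL1) and chr16:53434471-53491648 (RBL2). Other annotated genes overlap 6 of them, among them LPAR6 within RB1, AKTIP at RBL2 and the antisense gene CSRP3-AS1 at E2F8. The counting is not stated to use strand, so reads of these genes and their neighbours may not be fully told apart.

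The RNA libraries held 13504153 to 14602701 reads on genes and the footprint libraries 80149 to 715049. Read numbers were recovered from the deposited values. In footprints, reads on protein-coding genes came to 33708 and 88695 with sh-NC and to 125760 and 584180 with sh-circMYBL2 (libraries a and b). The numbers in the column names of libraries a and b could not be tied to a replicate with certainty. The share of footprint reads on microRNA genes was 42.7% and 57.2% for sh-NC, and it was 32.8% and 12.2% for sh-circMYBL2, so depth and composition moved with the hairpin. The total that each library's values were divided by was recovered as well, and in footprints it differed from the reads on genes: 82265 and 185632 against 80149 and 300373 reads with sh-NC, and 258923 and 1113399 against 222841 and 715049 with sh-circMYBL2. Rescaling to reads on genes, added after seeing the data, raised the median footprint change of all genes tested from 0.56 to 1.21 on the log2 scale and that in RNA from -0.00375 to 0.0414. Values on that scale are given below where they change a call of a member, and for part of the other results. Footprint values given only as deposited may differ on that scale by more than 1.5 times. Replicates correlated across genes at r = 0.983 in RNA with either hairpin, but at 0.575 (sh-NC) and 0.804 (sh-circMYBL2) in footprints. Of the 12 myeloid genes checked against the label, 11 passed the filter in RNA, while the monocyte marker CD14 stood at 0 to 0.0399 FPKM. None of the 12 erythroid and megakaryocyte genes passed it, and of the lymphoid and the adherent or stromal genes 1 each did.

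In input RNA, RBL1 and the atypical repressor E2F8 rose with sh-circMYBL2, the low activators E2F1 and E2F2 had more reads in both sh-circMYBL2 libraries, and E2F3, E2F4 and E2F6 stayed near their sh-NC levels. Genes with a mean of at least 1 FPKM over the 4 libraries were tested with limma on log2(FPKM + 1), with p-values adjusted by Benjamini-Hochberg over all 12489 such genes and a threshold of 0.05. Of the 10 members 8 were tested and 2 passed, both higher, beside 8.88% of all genes tested in either direction. Of all genes 615 (4.92%) passed as higher and 494 (3.96%) as lower, and scaled to reads on genes these numbers were 883 and 378, with 4 members called (E2F7 at 0.0470 and RB1 at 0.0375 beside RBL1 and E2F8). E2F8 and E2F7 passed the filter only through the sh-circMYBL2 libraries, since their sh-NC means were 0.648 and 0.953 FPKM, so a count that includes them is a description. Both calls rest on all 4 libraries: with any 1 RNA library left out no gene of the table passed, and the adjusted p was 0.0800 to 0.0984 for RBL1 and 0.118 to 0.152 for E2F8. In bulk RNA, a change in the level per cell and a change in the share of cells that hold the transcript cannot be told apart.

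**Figure D1:**
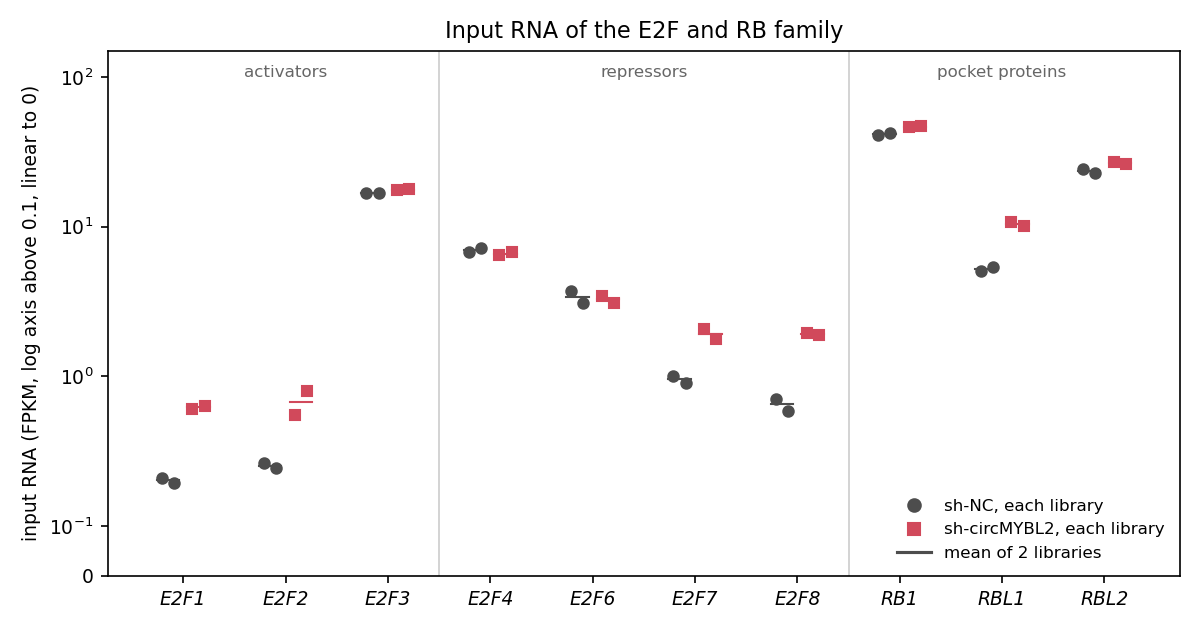
Input RNA of each member in FPKM (log axis above 0.1, linear to 0), with sh-NC libraries as grey circles, sh-circMYBL2 libraries as red squares and a line at each mean of 2 libraries. RBL1, E2F7, E2F8, E2F1 and E2F2 stand apart by hairpin, and the activator E2F3 lies far above E2F1 and E2F2 in every library.

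E2F1, the activator best known as a driver of S phase entry, stood at 0.210 and 0.194 FPKM with sh-NC and at 0.604 and 0.633 FPKM with sh-circMYBL2. These levels rest on 7 and 7 reads against 21 and 23. The ratio of read numbers, each divided by the total its library was scaled to, was 3.06 (exact 95% interval 1.65 to 6.05, counting error only). E2F2 stood at 0.262 and 0.242 against 0.554 and 0.795 FPKM, a scaled read ratio of 2.69 (1.84 to 4.01). The hairpins did not overlap for either gene. Both fell below the filter and have no main test. An added test with voom on the recovered reads of genes with at least 10 reads, chosen after seeing the data, gave E2F1 a log2 change of 1.55 (SE 0.47, adjusted p = 0.0174) and E2F2 one of 1.38 (SE 0.31, adjusted p = 0.00109). That test called 9.83% of 18302 genes as higher and 8.86% as lower. Without a filter, limma on log2(FPKM + 1) gave adjusted p = 0.137 for E2F1 and 0.235 for E2F2.

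E2F3 carried nearly all activator RNA, at 16.9 and 16.7 FPKM in sh-NC cells and 17.6 and 17.7 in sh-circMYBL2 cells. Its groups did not overlap, but its log2 change of 0.07 (SE 0.04, adjusted p = 0.278) did not pass, and the 95% interval of the change ran from -0.03 to 0.17. E2F4, the pocket protein partner, stood at 6.74 and 7.16 against 6.46 and 6.77 FPKM (log2 change -0.06, interval -0.22 to 0.10, adjusted p = 0.528). E2F6 stood at 3.72 and 3.11 against 3.45 and 3.10 FPKM (log2 change -0.04, interval -0.32 to 0.24, adjusted p = 0.814). For E2F4 and E2F6 the groups overlapped. All 3 intervals end below the lower bound of the RBL1 change, which is 0.72.

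E2F8, which with E2F7 is known to shut E2F targets down in later S phase, stood at 0.708 and 0.587 FPKM with sh-NC and at 1.93 and 1.88 with sh-circMYBL2. The groups lay well apart. Its log2 change was 0.82 (SE 0.11, adjusted p = 0.0310), and its scaled read ratio was 2.95 (2.26 to 3.89). E2F8 passed the filter only through the sh-circMYBL2 libraries, and in limma without a filter its adjusted p was 0.0983. E2F7 stood at 1.002 and 0.904 against 2.07 and 1.78 FPKM, a log2 change of 0.58 (SE 0.11, adjusted p = 0.0569) and a scaled read ratio of 2.02 (1.67 to 2.45). E2F7 thus missed the threshold in the main test, whereas voom on recovered reads gave 1.01 with adjusted p = 8.99e-06. The log2(FPKM + 1) scale understates changes of genes this low, which is why the read ratios are larger.

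RBL1, itself a known E2F target, stood at 5.06 and 5.38 FPKM with sh-NC and at 10.7 and 10.1 with sh-circMYBL2. Both sh-circMYBL2 libraries lay far above both sh-NC libraries, with a log2 change of 0.87 (SE 0.06, adjusted p = 0.0117) and a scaled read ratio of 1.99 (1.83 to 2.16). RB1, the retinoblastoma protein gene, was the most abundant member, at 41.3 and 42.1 against 46.3 and 46.8 FPKM (log2 change 0.15, SE 0.03, adjusted p = 0.0620). RBL2, the pocket protein known from resting cells, stood at 24.4 and 22.7 against 27.0 and 26.3 FPKM (log2 change 0.17, SE 0.05, adjusted p = 0.111). Both were separated by hairpin without passing the main test. With voom on recovered reads, which called 13.7% of genes as higher and 12.5% as lower, they passed at 0.00181 and 0.00217, and with values scaled to protein-coding reads RB1 passed at 0.0423. Over the 8 tested members 6 had groups that did not overlap, all higher with sh-circMYBL2, where 30% of all genes tested did so as higher and 30.7% as lower. E2F7 and E2F8 are among these 6 and passed the filter only through the sh-circMYBL2 libraries, so the count is a description.

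By level per length, RNA of sh-NC cells ran from RB1 through RBL2, E2F3, E2F4, RBL1, E2F6, E2F7, E2F8 and E2F2 to E2F1, and no neighbours in that order overlapped between their 2 libraries. With sh-circMYBL2, RBL1 stood above E2F4, and E2F7 with E2F8 and E2F2 with E2F1 overlapped. Summed over the 7 E2F genes, the activators made up 58.8% and 59.3% of E2F RNA in sh-NC cells and 57.4% and 58.6% in sh-circMYBL2 cells. E2F7 and E2F8 together took 5.80% and 5.16% against 12.3% and 11.2%, and E2F4 with E2F6 took 35.4% and 35.6% against 30.4% and 30.2%. RNA of the 3 pocket protein genes summed to 70.7 and 70.2 FPKM with sh-NC and to 83.9 and 83.2 with sh-circMYBL2. The balance of activators to repressors, as the log2 ratio of their sums, differed between hairpins by -0.06 ± 0.04 (SE, n = 2 per group).

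**Figure D2:**
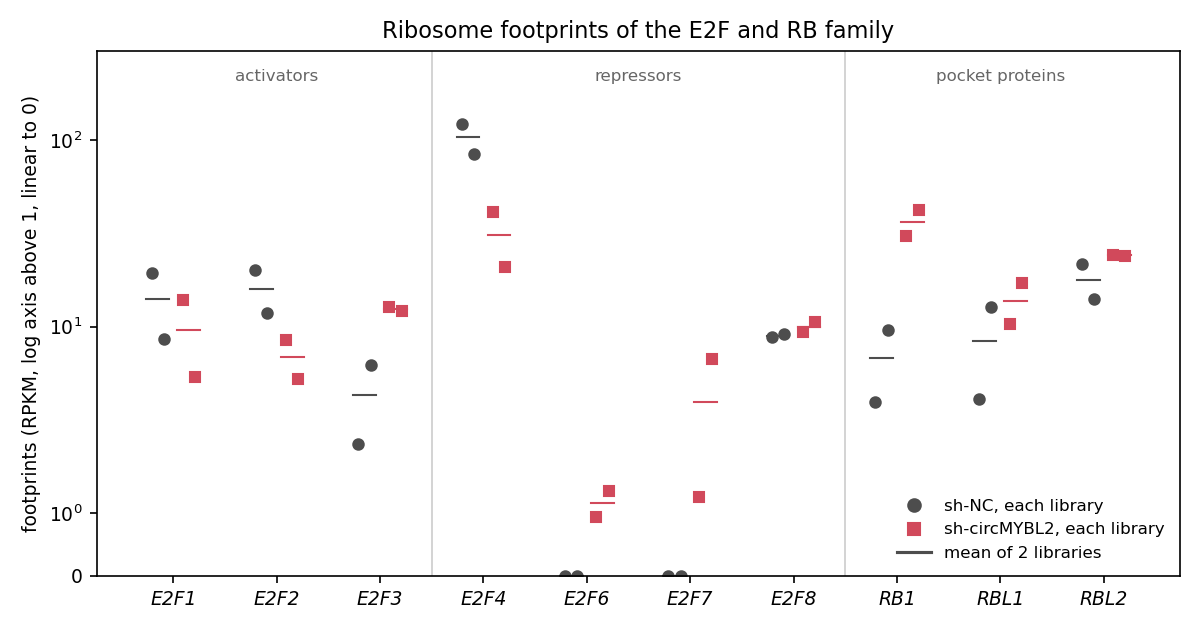
Ribosome footprints of each member in RPKM (log axis above 1, linear to 0), with symbols as in the plot of input RNA. E2F4 is highest with sh-NC and lower in both sh-circMYBL2 libraries, RB1 is higher in both, and E2F6 and E2F7 are at 0 in both sh-NC libraries.

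In footprints the family kept another order. E2F4 stood above all other members with sh-NC and was lower in both sh-circMYBL2 libraries, while RB1 was higher in both. No member passed the limma test, nor did any of the 9431 genes tested (0% called), of which 1212 had an unadjusted p under 0.05. Of the 9 members tested, 5 had groups that did not overlap and were higher (E2F3, E2F7, E2F8, RB1 and RBL2) against 30.7% of all genes, and 2 were lower (E2F2 and E2F4) against 10.9%. E2F7 passed the filter only through the sh-circMYBL2 libraries. Since the median footprint change over all genes tested was 0.56, a gene at 0 lay below most others.

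E2F4 stood at 122 and 84.2 RPKM in sh-NC cells and at 41.0 and 20.8 in sh-circMYBL2 cells (36 and 56 reads against 38 and 83). Both sh-circMYBL2 libraries lay below both sh-NC libraries. The log2 change was -1.76 (SE 0.51, adjusted p = 0.323), and the scaled read ratio was 0.257 (0.194 to 0.340). It stayed between -2.23 and -1.29 whichever library was left out, and it was -1.95 with values scaled to protein-coding reads. Scaled to reads on genes, the change was -1.02 (adjusted p = 0.421) and the read ratio 0.534. In voom E2F4 passed at adjusted p = 0.0487, where 0.53% of genes were called as lower and 0.0636% as higher. It missed the threshold at 0.0560 in the added test of genes with at least 10 reads, which called 0.482% as lower and 1.3% as higher.

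RB1 stood at 3.94 and 9.61 RPKM in sh-NC cells against 30.7 and 42.4 with sh-circMYBL2 (2 and 11 reads against 49 and 291). All sh-circMYBL2 values lay above all sh-NC values. The log2 change was 2.36 (SE 0.61, adjusted p = 0.323) and the scaled read ratio 5.11 (2.95 to 9.69). Leaving out a library gave 1.81 to 2.91, and scaling to protein-coding reads gave 2.19. Scaled to reads on genes, the change was 3.06 (adjusted p = 0.218) and the read ratio 10.6. RBL1 had 4.08 and 12.7 against 10.4 and 17.0 RPKM, with overlap between the groups (log2 change 0.78, SE 0.74, adjusted p = 0.687). RBL2 had 21.6 and 13.98 against 24.3 and 23.8 RPKM (log2 change 0.44, SE 0.46, adjusted p = 0.710). In the deposited values the RNA rise of RBL1 thus had no counterpart that footprints could resolve. The interval of the RBL1 footprint change ran from -1.24 to 2.80. Scaled to reads on genes, the read ratio was 3.27 for RBL1 and 3.04 for RBL2, beside 1.57 and 1.46 in the deposited scaling. No pocket protein passed in limma on that scale either.

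Among the activators, E2F1 stood at 19.4 and 8.61 RPKM in sh-NC cells and at 13.9 and 5.38 in sh-circMYBL2 cells, which overlap and rest on 4 to 15 reads (log2 change -0.52, SE 0.75, adjusted p = 0.787). Scaled to reads on genes, that change had the other sign, 0.14. E2F2 had 20.05 and 11.8 against 8.49 and 5.27 RPKM (log2 change -1.09, SE 0.59, adjusted p = 0.576), with a scaled read ratio of 0.409 (0.238 to 0.724). Scaled to reads on genes, the change was -0.42 and the read ratio 0.850, and the groups overlapped. In the deposited values E2F2 was thus lower in both sh-circMYBL2 footprint libraries and higher in both sh-circMYBL2 RNA libraries. E2F3 had 2.35 and 6.26 against 12.7 and 12.2 RPKM (log2 change 1.45, SE 0.67, adjusted p = 0.518), from 1 and 6 reads against 17 and 70. Leaving out sh-NC library 1 reduced it to 0.89, and leaving out sh-NC library 2 raised it to 2.003, and scaling to reads on genes gave 2.11 (adjusted p = 0.222).

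E2F8 stood at 8.81 and 9.11 RPKM in sh-NC cells and at 9.33 and 10.6 in sh-circMYBL2 cells (log2 change 0.14, SE 0.51, adjusted p = 0.916), a difference whose sign turned under 2 other scalings and which was 0.82 when scaled to reads on genes. E2F7 was at 0 in both sh-NC libraries and at 1.23 and 6.70 RPKM with sh-circMYBL2, where it had 2 and 47 reads. Set against 3 reads, the limit that a count of 0 allows over both sh-NC libraries, it was at least 3.19-fold higher, taking the sh-circMYBL2 reads as exact. That bound rests on library b, the deepest: without it the 2 reads left came to 0.690 times the same limit, and no increase is shown. E2F6 was at 0 with sh-NC and had 1 and 6 reads with sh-circMYBL2 (0.950 and 1.33 RPKM), a difference that could not be resolved at this depth. The part that depth and microRNA share had in the footprint differences of low members was not tested.

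**Figure D3:**
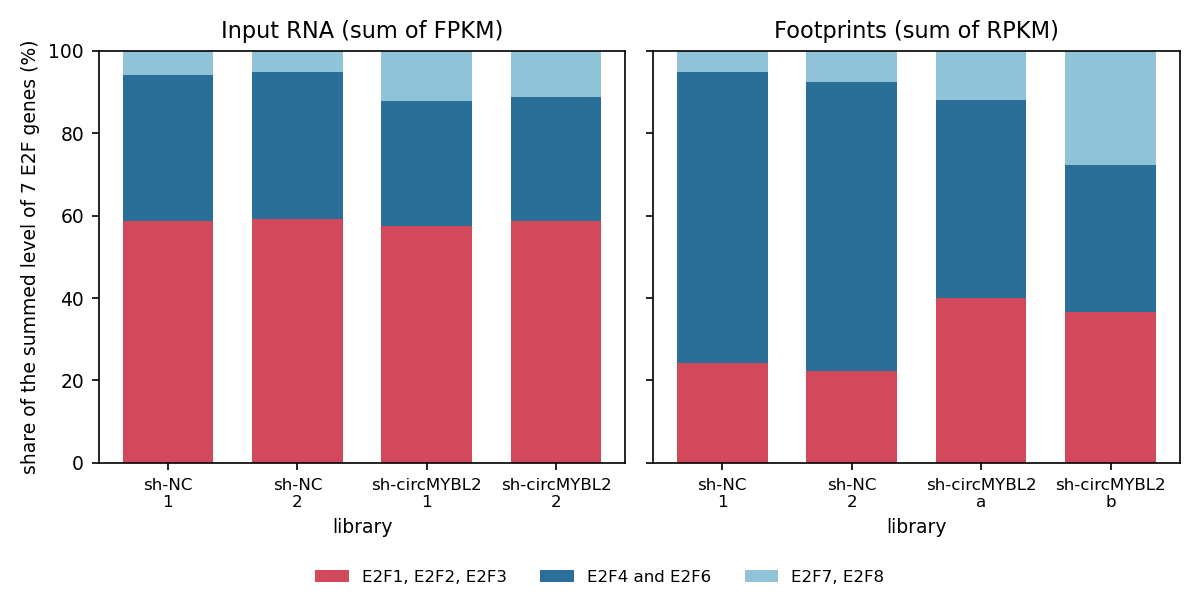
Share of the summed level of the 7 E2F genes in each library, in percent, for input RNA (left) and footprints (right), split into E2F1, E2F2 and E2F3, E2F4 and E2F6, and E2F7 and E2F8. E2F4 and E2F6 hold over 70% of E2F footprints in the sh-NC libraries and 47.9% and 35.5% in the sh-circMYBL2 libraries.

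Activators took 24.2% and 22.3% of E2F footprints in sh-NC cells and 40.1% and 36.6% in sh-circMYBL2 cells. E2F4 with E2F6 took 70.7% and 70.2% against 47.9% and 35.5%, and E2F7 with E2F8 took 5.10% and 7.59% against 12.1% and 27.8%. The log2 ratio of activator to repressor sums was higher with sh-circMYBL2 by 1.04 ± 0.13 (SE, n = 2 per group), but the sums are led by E2F4. When each gene counted alike, as the mean of log2(RPKM + 1), the difference had the other sign, -0.44 ± 0.48 (SE). Footprints of the pocket protein genes summed to 29.6 and 36.3 RPKM with sh-NC and to 65.3 and 83.2 with sh-circMYBL2. The order of single genes was unsure in footprints: below E2F4, the sh-NC levels from RBL2 down to E2F3 overlapped between neighbours, and with sh-circMYBL2 RB1, E2F4 and RBL2 formed an overlapping top group.

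The ratio of the mean footprint level (RPKM) to the mean RNA level (FPKM) set members far apart. In sh-NC cells it was 69.3 for E2F1, 63.3 for E2F2, 14.9 for E2F4 and 13.8 for E2F8, against 1.604 for RBL1, 0.756 for RBL2, 0.257 for E2F3 and 0.163 for RB1. The median gene stood at 0.825. With sh-circMYBL2 the ratios of E2F1, E2F2, E2F4 and E2F8 were 15.6, 10.2, 4.67 and 5.24, and those of E2F3 and RB1 were 0.705 and 0.785, with the median gene at 0.839. Among protein-coding genes with both values above 0 (7818 with sh-NC, 10646 with sh-circMYBL2), E2F1 stood at percentile 99.3 and then 99.0, E2F2 at 99.3 and 98.0, E2F4 at 96.9 and 93.7, and E2F8 at 96.7 and 94.6. E2F3 stood at percentile 16.9 and then 42.3, and RB1 at 9.25 and then 47.3. These values carry no test. The tables were scaled separately, so a ratio has meaning only beside that of other genes. The ratios with sh-NC rest on 8 footprint reads for E2F1, 21 for E2F2, 92 for E2F4, 10 for E2F8, 7 for E2F3 and 13 for RB1. With sh-circMYBL2 these were 24, 44, 121, 59, 87 and 340 reads. The part that depth had in the ratios was not tested.

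Translational efficiency (TE) is the change of footprints beyond that of RNA, fitted as the interaction of hairpin and assay over all 8 libraries. None of the 7 members tested passed, where 5.31% of all 8260 genes tested did, 5.05% as higher and 0.266% as lower. The median change over those genes was 0.57. RB1 came nearest, with a log2 change of 2.20 (SE 0.56, 95% interval 0.82 to 3.58, adjusted p = 0.0878). It passed in voom at 0.0490, where 1.63% of genes were called as higher and 0.496% as lower, and at 0.0437 over genes with at least 10 reads, where 2.79% were called as higher and 0.582% as lower. Whichever library was left out, the RB1 change was 1.65 to 2.75. Scaled to reads on genes, RB1 (2.85, adjusted p = 0.0280) and E2F3 (1.99, adjusted p = 0.0416) passed, with 846 genes called as higher and 2 as lower beside 417 and 22 in the deposited values. E2F4 had a change of -1.70 (SE 0.53, interval -3.00 to -0.40, adjusted p = 0.143), or -1.01 scaled to reads on genes (adjusted p = 0.357). The E2F4 change was -2.17 to -1.23 whichever library was left out. Each such fit leaves 1 library in a group, so no call of a single member is read from it. Over those same omissions the number of genes called in the whole table went from 0 to 4895.

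E2F3 had a TE change of 1.38 (SE 0.55, adjusted p = 0.2501), E2F7 one of 1.47 (SE 0.82, adjusted p = 0.420) and E2F8 one of -0.68 (SE 0.37, adjusted p = 0.404). RBL1 and RBL2 had -0.09 and 0.27, or 0.56 and 0.93 scaled to reads on genes. E2F1, E2F2 and E2F6 were below the filter in one of the tables. Fitted without a filter, E2F2 had a TE change of -1.51 (SE 0.53, adjusted p = 0.197) and E2F1 one of -0.95 (SE 0.77, adjusted p = 0.597). RB1 and E2F3 lay above the median of all genes, and E2F4 lay below it, both between sh-NC and sh-circMYBL2 footprints and after RNA was taken into account.

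**Figure D4:**
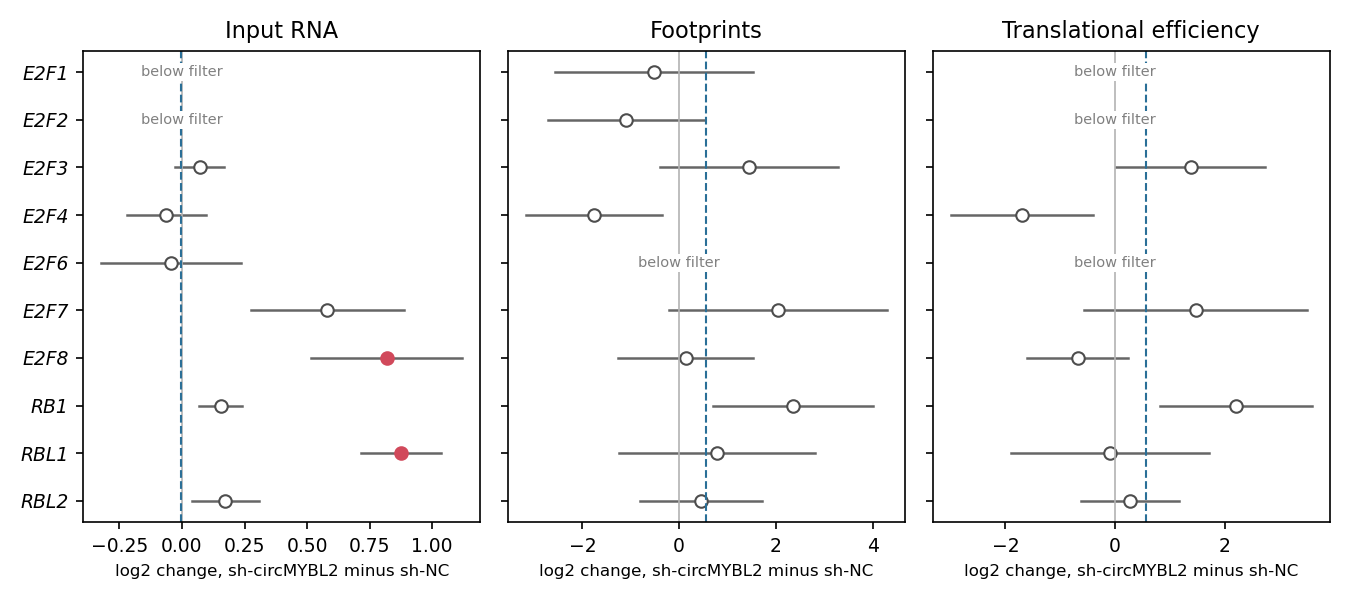
Log2 change of each member between hairpins (sh-circMYBL2 minus sh-NC) with its 95% interval in input RNA, footprints and translational efficiency. Red points passed an adjusted p of 0.05, open points did not, the dashed line is the median of all genes tested, and the scale of the RNA panel is narrower than that of the others.

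Genes that work with the family were read from 6 lists, drawn up like the members with earlier results known. Counts in RNA are to be read beside the 4.92% of all genes that passed as higher and the 3.96% as lower. Without a filter on low values no gene of 5 of these lists passed, the E2F targets being the exception. The DP partners that most E2Fs need to bind DNA are TFDP1 and TFDP2. TFDP1 rose in RNA, from 22.3 and 23.5 to 28.7 and 28.4 FPKM (log2 change 0.31, SE 0.04, adjusted p = 0.0300), and TFDP2 was at 1.93 and 1.94 against 2.48 and 2.60 FPKM (log2 change 0.27, adjusted p = 0.117). In footprints TFDP1 had 42.2 and 38.9 against 54.7 and 48.3 RPKM (log2 change 0.34, adjusted p = 0.724). Both stayed far above the low activators in RNA.

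Of the 9 cyclins and CDKs that phosphorylate pocket proteins 8 were tested, 4 rose and 1 fell, with a median log2 change of 0.39 against -0.00375 over all genes tested. Without the filter none of the 9 passed. Those that rose serve late G1 and S phase: cyclin A2 (CCNA2, 1.11), cyclin E2 (CCNE2, 0.94), cyclin E1 (CCNE1, 0.78) and their kinase CDK2 (0.72). The one that fell was the early G1 cyclin CCND2, by 0.37 on the log2 scale. Of the 7 CDK inhibitors 4 were tested. CDKN1A (p21), which blocks CDK2, fell from 23.9 and 22.7 to 16.9 and 17.7 FPKM (log2 change -0.41, adjusted p = 0.0250), and no other inhibitor passed.

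Of the 11 corepressor genes 1 passed (beside 8.88% of all genes in either direction), the chaperone of histones RBBP7 (log2 change 0.42), and the median of the list was 0.03. Of the 10 genes of the Polycomb complex that holds E2F6 none passed. The smallest p-values there were those of RNF2, a ubiquitin ligase (-0.17, adjusted p = 0.125), and WDR5, a histone-binding adaptor (-0.20, adjusted p = 0.175). In TE, 2 of its 9 tested genes, RNF2 and RYBP, passed as higher (3.71 and 2.33) beside 5.05% of all genes. Both had no sh-NC footprint read and passed the footprint filter only through the sh-circMYBL2 libraries. Their sh-NC footprint values had no spread and their fitted sizes depend on the pseudocount, so the count is a description only.

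Known E2F targets of G1 and S phase were the list with the most calls. Of 40 genes 37 were tested and 34 rose in RNA, none fell (beside 4.92% and 3.96% of all genes), and the median log2 change was 0.96. Examples were TYMS, which makes thymidylate (18.6 and 18.0 against 48.5 and 51.9 FPKM, log2 change 1.41), the ribonucleotide reductase subunit RRM2 (1.36 and 1.42 against 5.60 and 5.46 FPKM, 1.45), the flap nuclease FEN1 (1.14), the helicase subunit MCM3 (0.96) and the chromatin ATPase ATAD2 (0.90). MCM7, POLA2 and EZH2 did not pass, with changes of 0.40, 0.43 and 0.33. CDC45 and POLA2 passed the filter only through the sh-circMYBL2 libraries (sh-NC means 0.717 and 0.979 FPKM). The counts of the list include them and are a description. CCNE1 and CCNE2 are in this list and in that of the cyclins. Without a filter 13 of the 40 passed, and with any 1 RNA library left out, none did. In footprints none passed, with a median of 0.66 beside 0.56 for all genes, and in TE the median was -0.36 beside 0.57. The E2F word lay in promoter windows of 24 of the 34 list genes that had a window (70.6%), counted whatever their RNA change. Of all genes with a window, 3.99% held it. The list was chosen as known E2F targets, so this share is a description and tests nothing.

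**Figure D5:**
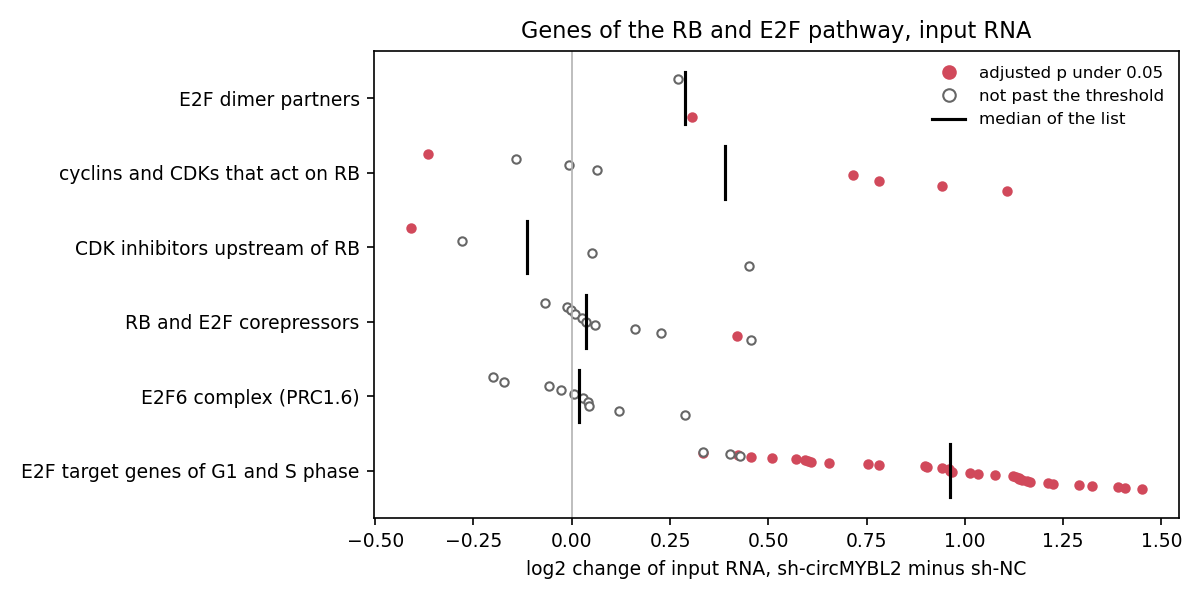
Log2 change of input RNA (sh-circMYBL2 minus sh-NC) of each tested gene in 6 lists of the RB and E2F pathway, 1 point per gene, in red where the adjusted p was under 0.05, with a bar at the median of each list. The E2F targets lie to the right of 0 throughout, and the cyclins and CDKs are split between genes near or below 0 and genes above 0.7.

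The RNA profile of E2F1 over the 4 RNA libraries, on the log2(FPKM + 1) scale and centred on its mean, was nearest to those of RPS6KA3, VDAC3, EIF4B, ERAP2 and CEP128, by Euclidean distance among 5289 protein-coding genes with a mean of at least 5 FPKM. The distances were 0.0206 to 0.0261. Their log2 changes of 0.41 to 0.43 are matched to 0.43 for E2F1 on that scale. That value is small because E2F1 is low, so the likeness is one of this scale: RPS6KA3 went from 17.5 and 17.4 to 23.2 and 23.8 FPKM, far less in proportion than E2F1.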

How the data were processed

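Per the labels, ribosomal RNA was removed with a kit and libraries were prepared with one for small RNA. The submitters' processing notes name cutadapt, Bowtie, HISAT2, featureCounts, DESeq2 and build hg38; the sources used here give neither versions nor roles nor the strand setting. The authors deposited RPKM values for footprints and FPKM values for input RNA, both divided by gene length and by a library total. All value columns were used. Values multiplied by gene length came in equal steps within a library, so read numbers were recovered (tolerance 0.002 reads) for all but 1 of 30194 genes above 0. For microRNA genes 98.6% to 99.4% of values came out whole. Recovery was tested on simulated data.

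The members, lists and tests were chosen with earlier results of these data known. limma 3.58.1 in R 4.3.3 (lmFit, eBayes with trend) was run on log2(value + 1) in each table, with two-sided tests, a filter that asked for a mean of 1 or more, and Benjamini-Hochberg adjustment over every gene tested. For TE the model had a term for hairpin by assay over all 8 libraries and the genes that passed in both tables, with 1 variance per gene for both assays although footprints varied more, so TE p-values may be too small. With 2 libraries on each side the smallest exact permutation p is 0.333. All fits were tested on simulated data. Read ratios carry exact conditional 95% intervals that cover counting error only. Named genes were the members, TFDP1 and TFDP2, up to 5 genes per list with the smallest RNA p among those past the threshold, up to 2 where none passed, and the 5 nearest to E2F1. The list genes MCM7, POLA2, EZH2, CDC45 and RYBP were named after their values were seen. Alternatives were 2 other pseudocounts (0.1 and 5), no filter, quantile normalization, scaling to protein-coding reads or, added later, to reads on genes, voom on recovered reads, each library left out and a replicate block. Protein sequences were not used here.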

Additional observations from a re-analysis of the deposited data

Results flagged for a closer look

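In the deposited values, E2F2 had more RNA in both sh-circMYBL2 libraries than in both sh-NC libraries. It had fewer footprints in both sh-circMYBL2 libraries than in both sh-NC libraries. The values of the hairpins thus stood in opposite order in the 2 assays, though the footprint difference did not pass (limma, adjusted p = 0.576). Scaled to reads on genes, it shrank from -1.09 to -0.42. On that scale the footprint groups overlapped, so the opposite order was not kept. The difference, footprint change minus RNA change, was -1.51 on the log2(value + 1) scale when fitted without a filter (limma, adjusted p = 0.197). The main fit did not test it, because E2F2 RNA was below the filter, and the added voom fit gave -2.62 (adjusted p = 0.0581).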

How the results depend on the processing

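Under pseudocounts of 0.1 and 5, quantile normalization and scaling to protein-coding reads, the RNA calls of RBL1 and E2F8 held. Scaled to reads on genes they held too. Without a filter neither passed (limma, adjusted p = 0.0516 for RBL1 and 0.0983 for E2F8). In RNA, 1109 genes and 2 members were called. Without a filter these were 97 and 0, scaled to reads on genes 1261 and 4, in voom 3268 and 5, in voom over genes with at least 10 reads 3420 and 7, with the replicate block 0 and 0, and with each RNA library left out 0 to 0 and 0 to 0. Unadjusted p-values under 0.05 numbered 3373 with the block and 2608 to 2827 with a library left out. With the block the adjusted p was 0.0546 for RBL1 and 0.0868 for E2F8. The pairing has no basis beyond a shared number (correlation of deviations 0.0265). The numbers of the sh-circMYBL2 footprint columns could not be tied to a replicate, so no paired analysis was run on footprints. In footprints 0 genes and 0 members were called. Voom called 56 genes and 1 member (E2F4), and voom with at least 10 reads called 155 genes. Leaving out a library gave 0 to 1042 genes and 0 to 1 members. That member was E2F7, without library a or b, but these fits cannot test it. Its sh-NC values were 0 in both libraries, so with 1 sh-circMYBL2 library left neither group had spread. The same holds for any gene at 0 in both sh-NC libraries, so no change is read from these counts. For TE 439 genes and 0 members were called. The genes were 853 and 2 with pseudocounts of 0.1 and 5, 0 with quantile normalization (1170 unadjusted), 848 scaled to reads on genes (2 members, E2F3 and RB1), 176 in voom (1 member, RB1), 290 in voom with at least 10 reads (1 member) and 0 to 4895 with a library left out (0 to 4 members). 

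Signs turned for RNA of E2F6 (0.0561 without sh-NC library 1 and 0.0169 without sh-circMYBL2 library 2, over a range of -0.142 to 0.0561), footprints of E2F8 (-0.0562 with quantile normalization and -0.0339 with protein-coding scaling), footprints of E2F1 (0.139 scaled to reads on genes, 0.0207 without sh-NC library 1 and 0.0876 without sh-circMYBL2 library b, range -1.13 to 0.0876), TE of RBL1 (0.559 scaled to reads on genes, 0.621 without sh-NC footprint library 2 and 0.240 without sh-circMYBL2 library a, range -0.806 to 0.621) and of RBL2 (-0.0245 without sh-NC footprint library 2, range -0.0245 to 0.568), and the activator to repressor difference in footprints (-0.436 as a mean of log2 values). The causes were not tested, apart from the fewer libraries and larger number of genes tested that some settings bring by construction. Depth limits the low members most: sh-NC footprints of E2F1, E2F3, E2F8, RB1 and RBL1 rest on 7 to 16 reads over both libraries.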
